A study of Homo sapiens with 6 samples.

Results

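Insulin-like growth factor (IGF) signaling is set by ligands, receptors and a family of secreted binding proteins. IGF2 is a ligand, IGF1R is the receptor tyrosine kinase that binds both IGFs, and INSR is the related insulin receptor, which can also bind IGF2. IGFBP2 to IGFBP6 bind IGFs with high affinity in the extracellular fluid, which restrains or prolongs their access to IGF1R, while IGFBP7 binds IGFs weakly and is often treated as a related protein. Several binding proteins are also known as secreted products of senescent cells, IGFBP3 and IGFBP7 among them, and IGFBP3 is a known transcriptional target of p53. The 9 genes described here are IGFBP2, IGFBP3, IGFBP4, IGFBP5, IGFBP6, IGFBP7, IGF1R, INSR and IGF2. They were taken by name, and all 9 were found among the 34738 genes of the expression table.

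The RNA came from an established human thyroid cancer line, named KHM-5M in the labels, while the text of the study names TPC-1 for a plot of such a comparison. Cells in which an siRNA against GDF15, a stress-induced cytokine of the TGF-β family, was introduced (the siGDF15 group, 3 libraries) were compared with control cells (the NC group, 3 libraries) to see which genes change when GDF15 is knocked down. The methods list a negative control siRNA, whereas the description of the samples names a blank control, so a difference between the groups and an effect of transfection cannot be told apart if NC cells had no siRNA. The study calls the 3 libraries of a group biological replicates of 1 cell line, and 1 siRNA sequence was listed against GDF15. The labels name no other alteration in either group. Cells were kept in medium with fetal bovine serum and transfected in medium without it, and the time from transfection to RNA extraction was not given in the sources used here.

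Poly(A) RNA was sequenced, and the authors gave each gene an FPKM value (fragments scaled for transcript length and library size) and a count worked out from transcript coverage. Counts summed to between 51738814 and 68025163 per library, with the lowest total in siGDF15 replicate 2. One read pair corresponded to about 4 counts. GDF15 had between 19.3 and 23.1 FPKM in NC and between 10.5 and 10.8 FPKM in siGDF15, and was thus lower in every siGDF15 library. Of 9 thyroid lineage markers, PAX8, FOXE1 and HHEX had a mean of at least 1 FPKM, whereas TG, SLC5A5, NKX2-1, DIO1 and DIO2 were under it and TSHR was not analysed here. Their summed level lay between 61.7 and 72.1 FPKM in NC and between 83.3 and 86.5 FPKM in siGDF15, and nearly all of it was PAX8, which rose (log2 fold change 0.53, edgeR adjusted p = 1.2e-04), while HHEX fell (-0.56, adjusted p = 0.0014) and FOXE1 had a value of 0.14 (adjusted p = 0.22). All 6 epithelial markers were expressed. Among them CDH1, with a mean of 0.897 FPKM in NC and 1.28 FPKM in siGDF15, had a log2 fold change of 0.61 (edgeR adjusted p = 0.049), with overlapping groups. CDH1 passed the filter of the test, a mean of 1 FPKM, only through siGDF15, so that call is not independent of the filter. The other epithelial markers did not pass the test. Of the mesenchymal and stromal markers 9 of 10 were expressed as well, with a summed level between 781 and 843 FPKM in NC and between 853 and 897 FPKM in siGDF15. Of these, FN1 rose from a mean of 367 to 474 FPKM (edgeR adjusted p = 7.9e-04), whereas VIM had a mean of 400 FPKM in NC and 355 FPKM in siGDF15 (adjusted p = 0.29) and the other 7 did not pass the test. Of the 9 leukocyte and endothelial markers only CD68 reached 1 FPKM, and the others together stayed at or below 0.952 FPKM in every library. The part of the changes in PAX8, HHEX, CDH1 and FN1 in the following results was not tested.

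In siGDF15 cells the RNA of 3 of the 4 abundant binding proteins was higher. IGFBP3 rose 3.75-fold, IGFBP7 rose 1.49-fold and IGFBP4 rose 1.43-fold. These folds come from the edgeR fit, which rescales the libraries. The ratios of mean FPKM, which carry no such rescaling, were 3.49, 1.38 and 1.33 in the same order. In RNA of a whole culture, a changed number of expressing cells and a changed amount of RNA per cell cannot be told apart. IGFBP6, the other abundant member, had a log2 fold change of -0.13 that missed the threshold. The receptor IGF1R and the ligand IGF2 were expressed at low levels that did not pass the test either. The quasi-likelihood test of edgeR was run over the 11867 genes with a mean of at least 1 FPKM, and 7 of the 9 members passed that filter. Of these 7, 3 were higher in siGDF15 at an adjusted p under 0.05, against 30.0% of all tested genes that were higher, 31.4% that were lower and 61.4% called in either direction. The count of members lower was 0 with edgeR, also at an unadjusted p under 0.05, 0 with DESeq2 and 1 with limma on log2 of FPKM plus 1. With a log2 fold change of at least 1 as a further condition only IGFBP3 remained, and 3.03% of tested genes were called higher and 4.78% lower by that rule. The 7 members had a median log2 fold change of 0.36, and all tested genes had a median of 0.0026. In either direction 42.9% of the 7 members were called, below the 61.4% of all tested genes. The share called higher was also 42.9%, above the 30.0% of all tested genes. Both shares rest on only 7 members. The size of the IGFBP3 change did rank high, at 48 of 11867 genes by rise.

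**Figure D1:**
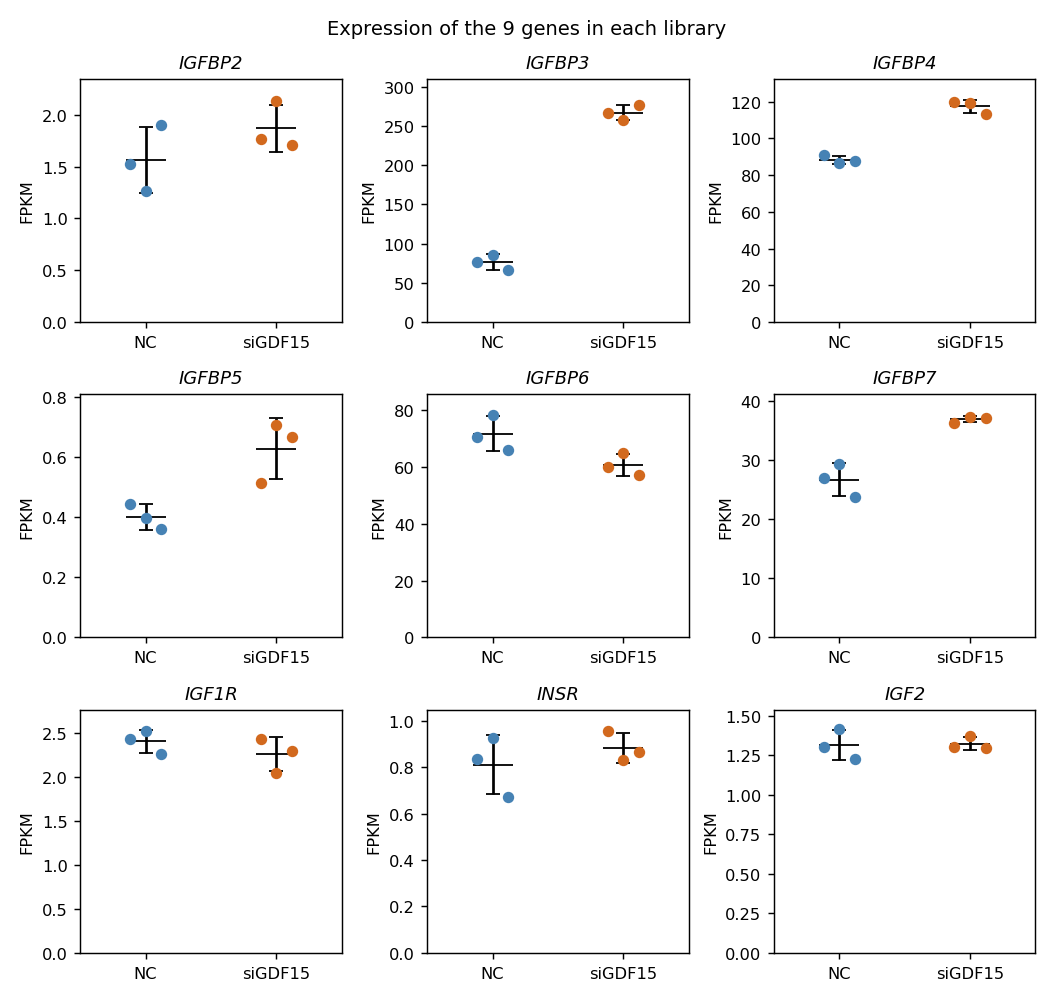
Expression of the 9 genes in FPKM (vertical axes, each from 0) in the NC and siGDF15 groups. Each point is 1 library, the long bar is the mean and the error bar is 1 SD (n = 3). All siGDF15 libraries lie above all NC libraries for IGFBP3, IGFBP4, IGFBP5 and IGFBP7, and below them for IGFBP6.

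The sequence before the transcription start is shown for IGFBP3, IGFBP4, IGFBP5 and IGF1R, so that their core promoters can be set side by side. IGFBP3 and IGFBP4 rose, and IGF1R did not pass the test. IGFBP5 was under the filter of 1 FPKM and rose in a fit with a lower filter. A link between these sequences and the changes was not tested. RefSeq promoter entries (GRCh38.p14) were found for 7 members, all but IGFBP7 and IGF2, and for 6 of them an entry began at the same base as the gene in the expression table. IGFBP6 was the exception, with a RefSeq start 231 bases away. The 60 bases before the start are given from 5′ to 3′ on the strand of the gene, with the letters TATAAA or TATATA in capitals. The windows are chr7:45921273-45921332 on the minus strand for IGFBP3, chr17:40443390-40443449 on the plus strand for IGFBP4, chr2:216695550-216695609 on the minus strand for IGFBP5 and chr15:98648479-98648538 on the plus strand for IGF1R.
IGFBP3: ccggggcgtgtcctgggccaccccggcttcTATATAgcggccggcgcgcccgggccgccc
IGFBP4: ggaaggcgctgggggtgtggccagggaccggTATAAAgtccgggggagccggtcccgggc
IGFBP5: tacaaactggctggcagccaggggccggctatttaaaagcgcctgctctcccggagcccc
IGF1R: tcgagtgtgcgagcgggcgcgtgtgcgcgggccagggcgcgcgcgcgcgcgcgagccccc

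IGFBP3 held TATATA starting 30 bases before the start, and IGFBP4 held TATAAA starting 29 bases before it, the usual place of a TATA box. Searched over the 250 bases before the start on both strands, neither motif was found in the other 5 members. For IGFBP2 only 1 of 3 entries was searched for these and the following motifs, that at the gene's start in the expression table. The search took only these exact letters, so a near match such as tatttaaaa in the IGFBP5 window was not counted. One of the 2 motifs was present in 12.8% of the 35116 promoter entries of the RefSeq table. The letters GGGCGG, the core of a GC box, were present on either strand in 42.6% of all entries. They occurred 2 times in IGFBP3, 1 time in IGFBP4, 1 time each in IGFBP2 and IGFBP6, 2 times in IGF1R and 4 times in INSR, and 0 times in IGFBP5. The consensus of a p53 half-site was in 5.57% of all entries and in none of the 7 members in this window, which says nothing of sites elsewhere in these genes.

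IGFBP3 is the main carrier of IGFs in serum and is also secreted by many cell types. The gene (ENSG00000146674) lies on the minus strand of chromosome 7 of GRCh38, from 45912245 to 45921272, and its neighbor IGFBP1 lies 18584 bases away on the opposite strand. IGFBP3 was expressed at 77.0, 86.1 and 66.8 FPKM in NC replicates 1 to 3 and at 267, 258 and 277 FPKM in siGDF15 replicates 1 to 3. The lowest siGDF15 library was far above the highest NC library, and the spread was 12.6% of the mean in NC and 3.54% in siGDF15. The means were 76.6 ± 9.66 and 267 ± 9.47 FPKM (SD, n = 3). The log2 fold change was 1.91 (SE, the standard error, 0.083, edgeR adjusted p = 8.7e-07), with a 95% interval from 1.72 to 2.10. By mean level IGFBP3 moved from position 386 to position 87 among the 34738 genes of the table.

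IGFBP4 encodes a binding protein that mostly inhibits IGF action until it is cleaved by the protease PAPP-A. The gene (ENSG00000141753) lies on the plus strand of chromosome 17 from 40443450 to 40457725. IGFBP4 was expressed at 90.9, 86.6 and 87.9 FPKM in NC and at 120, 119 and 113 FPKM in siGDF15. The NC libraries were close together, with an SD of 2.52% of the mean against 3.00% in siGDF15, and no siGDF15 library overlapped them. The log2 fold change was 0.51 (SE 0.047, edgeR adjusted p = 3.1e-05), with a 95% interval from 0.41 to 0.62.

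IGFBP7, on the minus strand of chromosome 4 from 57030773 to 57110385, encodes a secreted protein of the vascular and stromal matrix. It was expressed at 26.9, 29.4 and 23.8 FPKM in NC and at 36.3, 37.3 and 37.1 FPKM in siGDF15. The siGDF15 libraries were the tighter group, as for IGFBP3 but not for IGFBP4, with an SD of 1.39% of the mean against 10.5% in NC. The log2 fold change was 0.57 (SE 0.074, edgeR adjusted p = 2.2e-04). At its 3′ end the gene overlaps by 386 bases with POLR2B, which lies on the opposite strand and had up to 34.4 FPKM. The libraries were made with a protocol that marks the strand, but whether the counting used it was not given in the sources used here.

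IGFBP6, on the plus strand of chromosome 12 from 53097436 to 53102345, encodes the binding protein that prefers IGF2 to IGF1. It was expressed at 70.6, 78.1 and 66.0 FPKM in NC and at 59.9, 64.9 and 57.1 FPKM in siGDF15. The groups did not overlap in FPKM, and NC replicate 3 was the nearest to siGDF15. The log2 fold change was -0.13 (SE 0.075, edgeR adjusted p = 0.16), with a 95% interval from -0.30 to 0.04. With library totals in place of TMM, the factor that corrects for a few genes taking a large share of the counts, the log2 fold change was -0.24 (adjusted p = 0.023), and the median of all tested genes in that setting was -0.099. Without NC replicate 3 it was -0.19 (adjusted p = 0.042). For 4 of the 7 tested members, IGFBP3, IGFBP4, IGFBP6 and IGFBP7, the groups were apart in FPKM, and 68.4% of all tested genes had groups that did not overlap.

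IGFBP2 and IGFBP5 lie tail to tail on chromosome 2, with a gap of 7668 bases, and both were expressed at low levels. IGFBP2, from 216632828 to 216664436 on the plus strand, had 1.52, 1.26 and 1.91 FPKM in NC and 1.77, 2.13 and 1.71 FPKM in siGDF15. The groups overlapped through NC replicate 3, the highest NC library. The log2 fold change was 0.36 (SE 0.17, edgeR adjusted p = 0.096), with a 95% interval from -0.03 to 0.75, and it was 0.53 (adjusted p = 0.014) without NC replicate 3 and 0.22 (adjusted p = 0.23) without NC replicate 2. IGFBP5, from 216672105 to 216695549 on the minus strand, encodes a binding protein that attaches to the extracellular matrix. It had 0.445, 0.396 and 0.360 FPKM in NC and 0.513, 0.707 and 0.666 FPKM in siGDF15, and the groups did not overlap. These values rested on 175 to 323 counts per library, and the mean was under the filter of 1 FPKM. With the filter lowered to 0.1 FPKM, which admitted 19360 genes of which 42.2% were called, IGFBP5 had a log2 fold change of 0.72 (SE 0.18, edgeR adjusted p = 0.012). Its level was far below that of IGFBP3, with an IGFBP3 to IGFBP5 ratio between 173 and 521 over the 6 libraries.

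The receptors and the ligand were expressed at low levels in both groups. IGF1R, on the plus strand of chromosome 15 from 98648539 to 98964530, had 2.44, 2.52 and 2.27 FPKM in NC and 2.43, 2.05 and 2.30 FPKM in siGDF15. The groups overlapped, and the log2 fold change of 0.016 (SE 0.073, edgeR adjusted p = 0.86) turned to -0.085 with library totals in place of TMM. Its 95% interval ran from -0.15 to 0.18, so a change the size of that of IGFBP4 lay outside it. INSR, on the minus strand of chromosome 19 from 7112255 to 7294414, had 0.835, 0.927 and 0.672 FPKM in NC and 0.956, 0.829 and 0.865 FPKM in siGDF15. The groups overlapped, and with the lower filter INSR had a log2 fold change of 0.20 (SE 0.13, edgeR adjusted p = 0.24), with a 95% interval from -0.09 to 0.49. The table holds 1 value per gene, so the INSR isoforms that differ in their affinity for IGF2 were not separated.

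IGF2, on the minus strand of chromosome 11 from 2129112 to 2158391, had 1.30, 1.41 and 1.22 FPKM in NC and 1.30, 1.37 and 1.30 FPKM in siGDF15. The siGDF15 values lay within the range of NC, and the log2 fold change was 0.12 (SE 0.096, edgeR adjusted p = 0.32), with a 95% interval from -0.10 to 0.34. IGF2 shares exons with the readthrough gene INS-IGF2, for which the expression table held no separate value. The only genes listed there that overlap IGF2 were IGF2-AS and MIR483. How reads that fit both IGF2 and INS-IGF2 were assigned was not tested. The other ligand, IGF1, stayed at or below 0.0107 FPKM in every library.

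**Figure D2:**
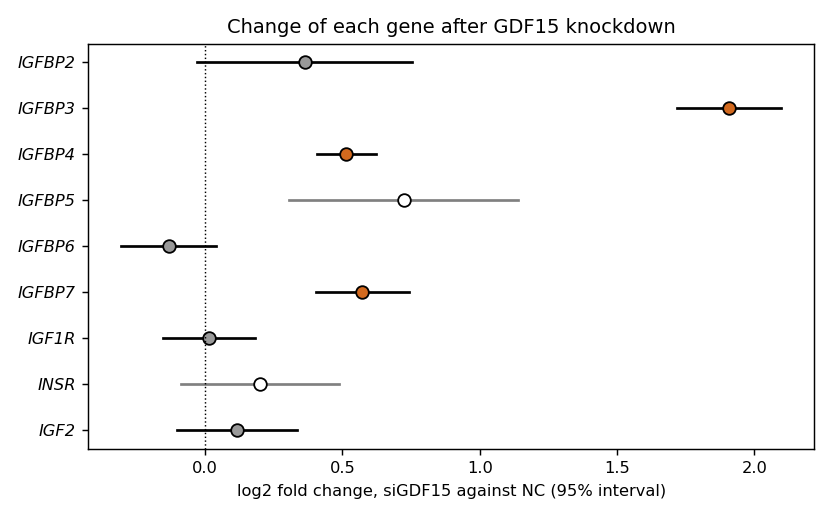
Log2 fold change of siGDF15 against NC (horizontal axis) for each of the 9 genes, with 95% intervals from edgeR (n = 3 libraries per group). Filled orange points had an adjusted p under 0.05 and gray points did not, and open points are IGFBP5 and INSR, taken from the fit with a filter of 0.1 FPKM. The interval of IGFBP3, from 1.72 to 2.10, lies to the right of all others.

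The order of the members by level, which FPKM allows since it is scaled by transcript length, changed at the top. In NC the order was IGFBP4, IGFBP3, IGFBP6, IGFBP7, IGF1R, IGFBP2, IGF2, INSR and IGFBP5. The ranges of IGFBP3 and IGFBP6 overlapped, as did those of IGFBP2 and IGF2, while the other neighbors did not. In siGDF15 the order was IGFBP3, IGFBP4, IGFBP6, IGFBP7, IGF1R, IGFBP2, IGF2, INSR and IGFBP5, and only IGF1R and IGFBP2 overlapped. IGFBP3 and IGFBP4 thus exchanged places. The other 7 members kept theirs.

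Taken as a pool, the 6 binding proteins amounted to 267, 282 and 247 FPKM in NC and to 485, 482 and 487 FPKM in siGDF15. The mean went from 265 ± 17.7 to 485 ± 2.27 FPKM (SD, n = 3). IGFBP3 accounted for 86.9% of the difference. The sum of the other 5 went from 189 ± 8.03 to 217 ± 7.22 FPKM (SD, n = 3). The share of IGFBP3 in the pool went from 28.8 ± 1.74% to 55.1 ± 1.70% (SD, n = 3). The share of IGFBP4 went from 33.4 ± 2.50% to 24.2 ± 0.819%, although its own level rose, and that of IGFBP6 from 27.0 ± 0.683% to 12.5 ± 0.883%. IGFBP7 went from 10.05 ± 0.395% to 7.61 ± 0.118%, and IGFBP2 and IGFBP5 together held under 1% of the pool in every library.

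**Figure D3:**
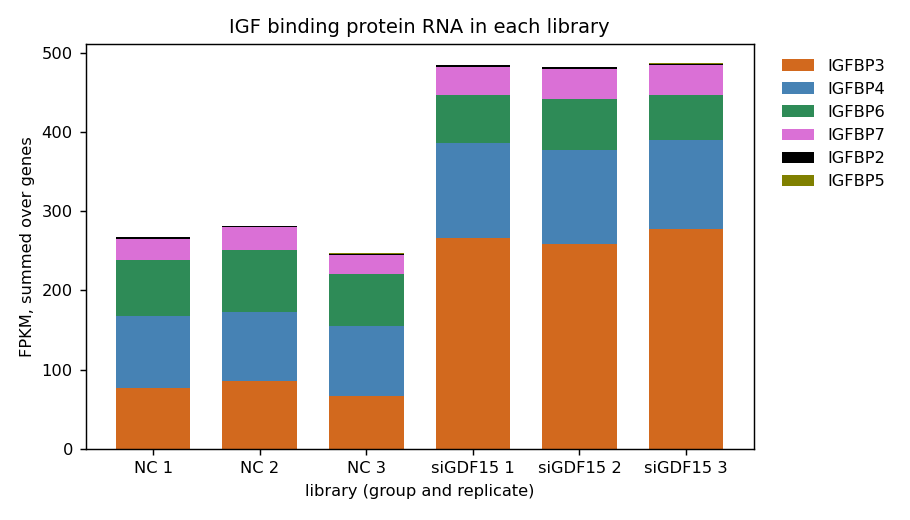
FPKM summed over the 6 binding proteins (vertical axis, from 0) in each of the 6 libraries, with 1 color per gene. The bars reach 247 to 282 FPKM in NC and 482 to 487 FPKM in siGDF15, and the lowest segment, IGFBP3, makes up most of the difference.

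Ratios between members, which do not depend on how the libraries were scaled, showed the same pattern. IGFBP3 to IGFBP6 was 1.09, 1.10 and 1.01 in NC and 4.45, 3.97 and 4.86 in siGDF15. IGFBP3 to IGFBP7 was 2.86, 2.93 and 2.81 in NC and 7.35, 6.93 and 7.46 in siGDF15. Both ratios separated the groups without overlap. Within NC the IGFBP3 to IGFBP7 ratio had a mean of 2.87 ± 0.0608 (SD, n = 3), a smaller relative spread than that of either gene. IGF1R to INSR was 2.92, 2.72 and 3.37 in NC and 2.55, 2.47 and 2.66 in siGDF15. These 2 ranges were also apart, by a margin smaller than the spread within NC.

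The NC libraries had a shared order among the members. NC replicate 2 was the highest and NC replicate 3 the lowest for 6 of the 9, namely IGFBP3, IGFBP6, IGFBP7, IGF1R, INSR and IGF2. The same order was found in 33.1% of all tested genes, the most frequent of the 6 possible orders. No order was shared by more than 3 members in siGDF15. The part of this difference between NC libraries in the changes reported here was not tested beyond leaving out each library in turn, under which IGFBP3, IGFBP4 and IGFBP7 stayed past the threshold, with log2 fold changes from 1.82 to 1.99, from 0.49 to 0.55 and from 0.50 to 0.64.

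The 3 tested genes with the pattern nearest to that of IGFBP3 were FUCA1, ABCC3 and TPCN1, with Euclidean distances of 0.071, 0.20 and 0.24 log2 units between mean-centered log2 CPM values (counts scaled to library size) over the 6 libraries. For IGFBP6, the tested member with the lowest fold change, they were TRIOBP, DMTF1 and PHF13, with distances of 0.082, 0.087 and 0.097 log2 units. With 6 libraries in 2 groups, this measure mostly finds genes with a like fold change.

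Other genes of the IGF system were examined as 8 lists by role, with 97 further genes tested, of which 43 were higher and 23 lower in siGDF15 at an adjusted p under 0.05 (edgeR). These are 44.3% and 23.7%, beside 30.0% and 31.4% of all tested genes. Their median log2 fold change was 0.13, beside 0.0026 over all tested genes. With limma on log2 of FPKM plus 1 the count of higher genes was 28, and 22.6% of all tested genes were higher in that setting. The counts of the single lists, given next, rest on few genes and stand beside the same shares of all tested genes.

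Of the proteases that cut binding proteins and their inhibitors, 8 of 16 tested genes were higher (50.0%, against 30.0% of all tested genes) and 4 were lower (25.0%, against 31.4%). The count of higher genes was 5 with limma or without TMM, and 4 without NC replicate 1 or without siGDF15 replicate 3, and the count of lower genes was 2 without siGDF15 replicate 3. PAPPA2, a protease that cleaves IGFBP3 and IGFBP5, fell. It had 4.76, 5.72 and 4.47 FPKM in NC and 1.83, 1.82 and 1.84 FPKM in siGDF15, a log2 fold change of -1.34 (SE 0.090, edgeR adjusted p = 6.2e-06). PAPPA, the related protease that cleaves IGFBP4, had 2.00, 2.76 and 1.74 FPKM in NC and 2.65, 2.76 and 2.74 FPKM in siGDF15. NC replicate 2 reached the siGDF15 level, and the log2 fold change of PAPPA was 0.43 (edgeR adjusted p = 0.030), a call that was lost in 8 of 17 alternatives. These were without NC replicate 1 (0.38, adjusted p = 0.10), without each siGDF15 library (adjusted p from 0.058 to 0.079), without TMM (adjusted p = 0.081), and with both limma settings or no filter (adjusted p = 0.093 in each). STC2, whose product inhibits both proteases, fell from between 7.43 and 10.3 FPKM in NC to between 4.29 and 4.42 FPKM in siGDF15 (log2 fold change -0.95, SE 0.11, edgeR adjusted p = 1.5e-04). Its relative STC1, named after its values were seen, had a log2 fold change of 0.84 (edgeR adjusted p = 0.019). CTSD, a lysosomal protease that can degrade IGFBP3, rose from between 117 and 141 FPKM to between 243 and 247 FPKM, a log2 fold change of 1.03 (SE 0.062, edgeR adjusted p = 3.5e-06).

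**Figure D4:**
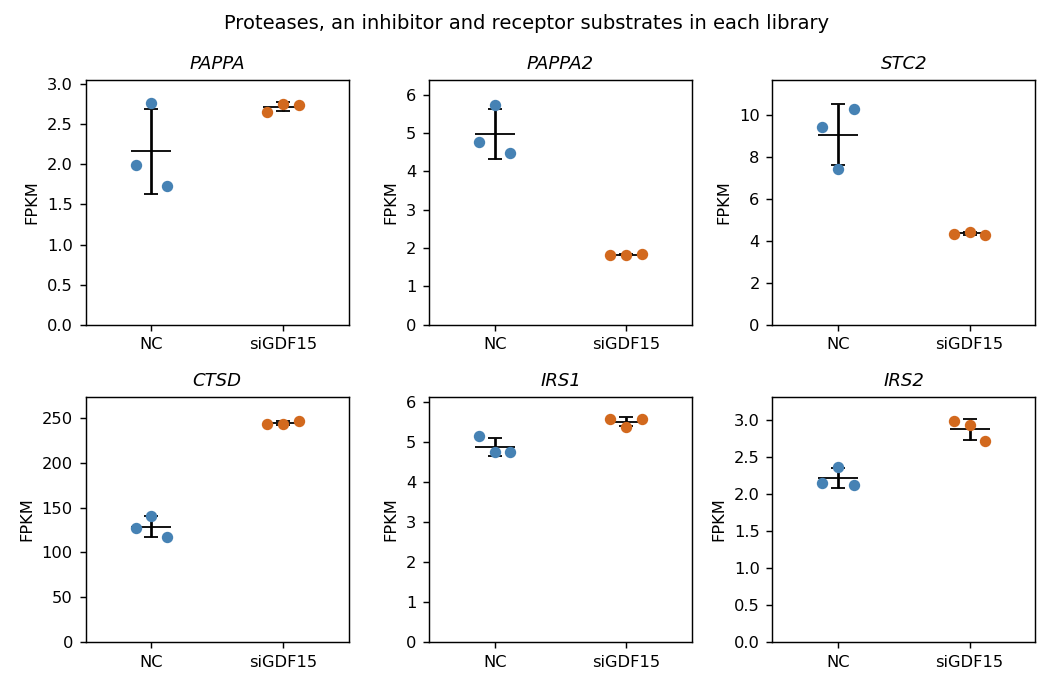
FPKM (vertical axes, each from 0) of PAPPA, PAPPA2, STC2, CTSD, IRS1 and IRS2 in the NC and siGDF15 groups. Each point is 1 library, the long bar is the mean and the error bar is 1 SD (n = 3). The groups are apart for all but PAPPA, for which NC replicate 2 reaches the siGDF15 libraries.

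Of the genes for cell surface and nuclear partners of IGFBP3 and IGFBP5, 7 of 12 were higher (58.3%, against 30.0% of all tested genes) and 3 lower (25.0%, against 31.4%), or 5 lower without NC replicate 2. SPP1, which encodes the matrix protein osteopontin, went from between 18.0 and 31.7 FPKM to between 64.5 and 64.8 FPKM (log2 fold change 1.45, SE 0.17, edgeR adjusted p = 1.2e-04). In the CCN family, matrix proteins that were once named IGFBP-related proteins, CCN1 was the 1 gene called of 2 tested (both were called without NC replicate 3), with 43.5, 29.9 and 60.3 FPKM in NC and 85.6, 89.4 and 89.6 FPKM in siGDF15 (log2 fold change 1.09, edgeR adjusted p = 0.0023). IGF2R, which clears IGF2 from the cell surface and sorts lysosomal enzymes, had between 10.3 and 11.4 FPKM in NC and between 9.97 and 10.7 FPKM in siGDF15. Its log2 fold change of 0.044 (edgeR adjusted p = 0.45) turned to -0.058 without TMM. Among 4 tested genes of IGF2 mRNA binding and the IGF2 locus, IGF2BP3, which binds IGF2 mRNA, was lower, with a log2 fold change of -0.33 (SE 0.099, edgeR adjusted p = 0.020). That call was lost without siGDF15 replicate 2 (adjusted p = 0.053) or without siGDF15 replicate 3 (adjusted p = 0.069).

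Receptor substrates and adaptors had 7 of 19 genes higher (36.8%, against 30.0% of all tested genes) and 3 lower (15.8%, against 31.4%). IRS1 and IRS2, the docking proteins that couple IGF1R and INSR to PI3K, both rose by small amounts. IRS1 had a log2 fold change of 0.28 (SE 0.054, adjusted p = 0.0022) and IRS2 of 0.48 (SE 0.072, adjusted p = 5.0e-04) in edgeR. GRB10, an adaptor that dampens both receptors, had a log2 fold change of 0.11 (edgeR adjusted p = 0.16), which passed the threshold without NC replicate 2 (adjusted p = 0.034). In the PI3K, AKT and mTOR list 12 of 28 genes were higher (42.9%, against 30.0% of all tested genes) and 9 lower (32.1%, against 31.4%), with 6 higher without TMM and 5 with limma. EIF4EBP1, a translation repressor controlled by mTOR, fell from between 148 and 168 FPKM to between 69.4 and 72.5 FPKM, a log2 fold change of -1.05 (SE 0.060, edgeR adjusted p = 2.8e-06). FOXO4, a transcription factor that AKT keeps out of the nucleus, rose from between 0.496 and 1.07 FPKM to between 1.43 and 1.46 FPKM (log2 fold change 1.05, edgeR adjusted p = 0.0067). Its mean was 0.749 FPKM in NC and 1.45 FPKM in siGDF15, so it passed the filter of 1 FPKM only through siGDF15. The NC values of FOXO4 rested on 141 to 304 counts. Phosphatases and other brakes of the receptors had 8 of 15 genes higher (53.3%, against 30.0% of all tested genes) and 3 lower (20%, against 31.4%), with 5 higher with limma, and no gene of this list passed both thresholds.

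**Figure D5:**
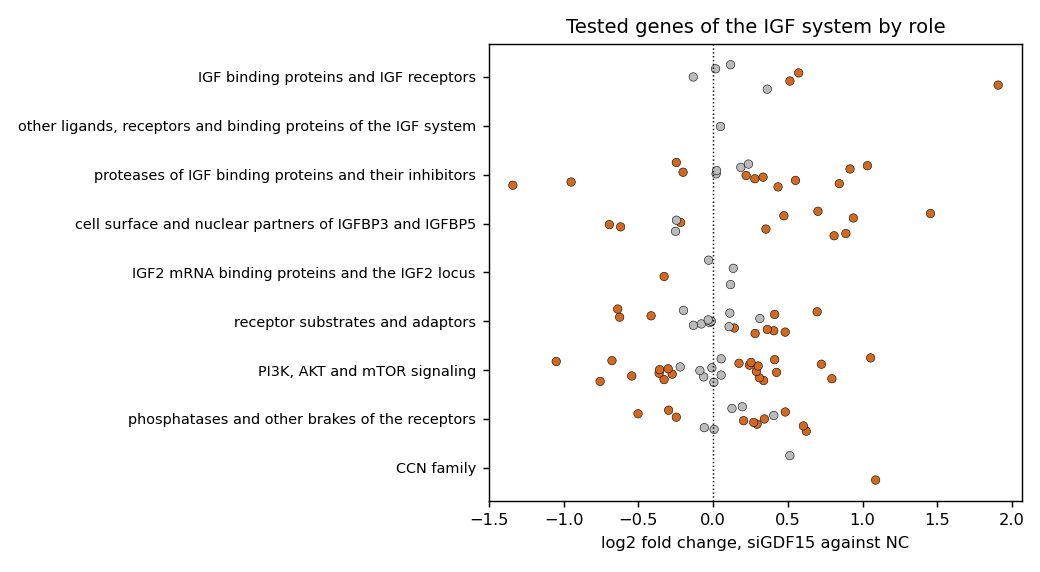
Log2 fold change of siGDF15 against NC (horizontal axis) for the tested genes of each list, with 1 point per gene. Orange points had an adjusted p under 0.05 in edgeR and gray points did not. IGFBP3, at 1.91, is the point farthest to the right, and PAPPA2, at -1.34, the point farthest to the left.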

How the data were processed

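RNA from 3 NC and 3 siGDF15 libraries was analyzed, grouped by the titles in the labels. Per the labels, the authors used fastp, HISAT2, StringTie and edgeR with GRCh38. Versions, options and the annotation release are not given in the sources used here. The authors deposited FPKM values and estimated counts per gene. The counts are whole numbers worked out from coverage, and 4 was the most frequent value from 1 to 20 (15.6% of them). A count of 0 allows up to 12 counts (3 read pairs), for counting error only.

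Genes with a mean of at least 1 FPKM were tested with edgeR 4.0.16 (TMM, quasi-likelihood, two-sided, Benjamini-Hochberg over all tested genes) in R 4.3.3. SEs come from each fold change and its F statistic. The script was tested on simulated data. Replicates differed by more than sampling noise, at 1.43 to 7.15 times the median chi-square that counting alone gives. The sources used here do not say whether they were separate cultures, and p-values measure only the spread between these libraries. Alternatives were other normalizations, DESeq2 1.42.0, limma 3.58.1 on log2 of FPKM plus 1 or 0.1, other filters, counts divided by 4, a replicate block and each library left out. The named genes were the 9 members, GDF15, IRS1, IRS2, IGF2R, PAPPA, STC2, GRB10 and IGF2BP3, up to 6 genes of each list past both thresholds with groups apart (smallest adjusted p taken), and the nearest patterns. The members and lists were chosen with earlier results of these data known. A planned comparison of protein sequences was not made. A thyroid lineage marker of the original list is not reported here.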

Additional observations from a re-analysis of the deposited data

How the results depend on the processing

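The log2 fold changes of IGFBP3, IGFBP4, IGFBP7 and IGF2 kept their direction and their side of the threshold under all 17 alternatives. For IGFBP3 the value lay between 1.80 and 1.99. IGFBP6 passed the threshold with library totals in place of TMM (-0.24) and with limma on log2 of FPKM plus 1 (-0.23) or plus 0.1 (-0.24), which made the count of members lower 1 in each; over the fits without 1 library it ranged from -0.19 to -0.074 and that count from 0 to 1. In these settings the median of all tested genes was -0.099, -0.081 and -0.0997. The share of higher genes among all called was 36.6% in each of the 3 and 55.8% with libraries scaled to the same median, against 48.9% as reported. IGFBP2 ranged from 0.22 to 0.53 without 1 library. IGF1R turned to -0.085 without TMM, -0.064 and -0.089 with limma plus 1 and plus 0.1, -0.014 with a filter of 0.1 FPKM, -0.036 without a filter and -0.022 with filterByExpr, and ranged from -0.029 to 0.079 without 1 library. IGF2R turned to -0.058 without TMM, -0.055 and -0.060 with limma and -0.0085 without a filter. The count of other IGF genes called higher was 28 with both limma settings. With CPM, which is not scaled by length, the share of IGFBP3 in the pool was 49.7% in NC and 74.2% in siGDF15, and IGF1R to INSR was 3.86 and 3.29. The cause of these shifts was not tested. The replicate block changed no call of a member and gave 6906 called genes against 7286, with IGFBP3 at 1.91, IGFBP4 at 0.51, IGFBP6 at -0.13 and IGFBP7 at 0.58. Deviations of same-numbered libraries correlated from -0.075 to 0.046, and those of differently numbered libraries from -0.135 to 0.089. With 3 libraries per group, these values cannot decide whether same-numbered libraries were prepared together. IGFBP5 had the fewest counts of the members, 175 to 323 per library, followed by IGFBP2 with 450 to 677.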

Other observations

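PIK3R2, a regulatory subunit of PI3K named here after its values were seen, showed a split within siGDF15. It had 25.1 and 24.0 FPKM in siGDF15 replicates 1 and 2 and 10.3 FPKM in replicate 3, beside 13.6, 12.5 and 10.7 FPKM in NC, with a log2 fold change of 0.79 (SE 0.29, edgeR adjusted p = 0.041). The table also lists ENSG00000268173, which overlaps PIK3R2 on the same strand of chromosome 19 from 18153158 to 18178117. This gene had 383, 839 and 8742 counts in siGDF15 replicates 1 to 3, while PIK3R2 had 9708, 7162 and 3976. Added together, the pair had 5418, 7291 and 6326 counts in the NC libraries and 10091, 8001 and 12718 counts in the siGDF15 libraries, without overlap.

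The siGDF15 libraries were more alike than the NC libraries. The median spread over tested genes was 4.84% of the mean in siGDF15 and 6.82% in NC, and 62.5% of tested genes and 5 of the 7 tested members had the lower spread in siGDF15.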
